A study of Mus musculus with 4 samples.

Results

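The 9 genes described here encode transcription factors that mark regions and neuron types of the hippocampus and its neighbors: Prox1, Glis3, Zfhx3, Tshz2, Cux2, Fezf2, Foxp2, Etv1 and Lhx6. They were taken by symbol from the 56748 gene rows of the deposited count matrices, in a choice made with earlier results of these data known, and all 9 had at least 1 UMI (unique molecular identifier, the count of a captured RNA molecule) in each of the 8 pools. Their levels were determined in each marker-defined class of nuclei and over all nuclei of a pool, the latter as a measure of which tissue each dissection held. Single nuclei of the hippocampus were profiled 14 h after repeated social defeat (RSD, stress), in which an aggressor defeats the resident males on 6 nights for 2 h each, or without it (control). Each pool combined nuclei of 3 male mice, and individual mice cannot be told apart within a pool.

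In the diet experiment, C57BL/6 males (5 to 7 weeks old at purchase) received chow with vehicle or with PLX5622 (1200 mg/kg), a CSF1R antagonist that depletes microglia, from 7 days before RSD. This gave the pools Control-Vehicle, Stress-Vehicle, Control-PLX5622 and Stress-PLX5622. In the genotype experiment, Cre-negative IL-1R1+/+ mice and mice in which Vglut2-driven Cre removed the IL-1 receptor 1 from glutamatergic neurons (nIL-1R1-/-) gave the pools Con-IL-1R1+/+, Stress-IL-1R1+/+, Con-nIL-1R1-/- and Stress-nIL-1R1-/-. Interneurons and other cells without Vglut2 keep the receptor in this model. Every arm was 1 pool, so p-values measure the spread between pools of matched control and stress pairs, and intervals within a pool cover counting error only.

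Regional identity in the forebrain is set by transcription factors that are switched on in progenitors or young neurons and are often kept for life. Prox1 is needed for dentate gyrus (DG) granule cell identity, and is also found in interneurons of the caudal ganglionic eminence (CGE) and in oligodendrocytes. Lhx6 is the corresponding factor of interneurons of the medial ganglionic eminence (MGE). Cux2 marks upper cortical layers, whereas Fezf2, Foxp2 and Etv1 mark deep-layer projection neurons. Tshz2 is a zinc finger protein of deep cortical and retrosplenial neurons. Zfhx3 is a large homeodomain protein prominent in diencephalic neurons. Glis3 is a Krüppel-like zinc finger factor.

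The data comprised 57350 nuclei, of which 56834 remained after the mitochondrial filter, and 217534776 UMIs. Depth was uneven. Pool totals ran from 7534594 to 58081835 UMIs, and the median nucleus had 598 UMIs in Control-PLX5622 and 628 in Stress-PLX5622 against up to 5012 elsewhere. Clustering without the 9 genes gave 34 clusters, of which 20 were named from fixed markers and 14, with 39.7% of nuclei, are called by a leading gene. The targeted receptor gene, Il1r1, had levels over all neurons of 20.7 CPM (UMIs of a gene scaled to a fixed library total) in Control-Vehicle, 20.1 in Control-PLX5622, 21.2 in Stress-Vehicle and 15.7 in Stress-PLX5622. The IL-1R1+/+ pools had 15.1 CPM (control) and 7.80 CPM (stress) and the nIL-1R1-/- pools 5.23 CPM (control) and 3.40 CPM (stress), so both pools labelled nIL-1R1-/- were the lowest. Microglia-like nuclei numbered 11 and 12 in the PLX5622 pools and 163 to 199 elsewhere.

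Some pools held nuclei that others nearly lacked. The Otx2os1-led cluster, an unnamed neuronal cluster whose top genes include Ebf1, Ebf2, Ebf3 and Tcf7l2, had 1507 of the 7554 nuclei of Con-IL-1R1+/+ (19.95%) and 24 to 137 nuclei in each other pool. Thalamic or midbrain-like nuclei numbered 187 in Control-Vehicle and 195 in Control-PLX5622 against 1 to 56 elsewhere. Medium spiny-like neurons, a striatal type, came from Stress-IL-1R1+/+ in 237 of 261 nuclei, and cerebellar granule-like nuclei came from Stress-nIL-1R1-/- in 75 of 119. A cluster that is mostly 1 pool may reflect that pool rather than a cell type, so differences that moved with these 4 sets are given with and without them, an alternative added after the data were seen.

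In the mouse genome GRCm39, Prox1 lies on chromosome 1 (189850232 to 189904637, minus strand), Glis3 on chromosome 19 (28236251 to 28657667, minus), Zfhx3 on chromosome 8 (108669276 to 109688262, plus), and Tshz2 and Lhx6 both on chromosome 2 (169474613 to 169913736, plus, and 35971964 to 35995601, minus). Cux2 lies on chromosome 5 (121994429 to 122188521, minus), Fezf2 on chromosome 14 (10121574 to 10127680, plus), Foxp2 on chromosome 6 (14901287 to 15441976, plus) and Etv1 on chromosome 12 (38828851 to 38920483, plus). Each is a protein-coding gene of the GENCODE vM39 annotation, and the gene identifiers matched those in the deposited files. Prox1 overlaps the antisense gene Prox1os, which had 4399 UMIs against 16568 of Prox1. Whether counting used strand is not stated in the sources used here, so reads of this pair may not have been separated. CPM is not corrected for gene length, so levels are compared between classes and pools for 1 gene at a time.

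Prox1 and Glis3 were the granule cell pair. In DG-like nuclei, Prox1 had 301 CPM over the 8 pools (95% interval 294 to 308) and Glis3 had 1022 CPM (1009 to 1034). In the pyramidal classes Prox1 had 9.61 CPM (CA1-like) and 8.75 CPM (CA2/3-like), and Glis3 had 26.3 and 29.3 CPM. DG-like nuclei were 9979 of all nuclei and held 45.7% of all Prox1 UMIs and 52.8% of all Glis3 UMIs. A Prox1 UMI was found in 38.9% of DG-like nuclei (median 1634 UMIs per nucleus) and in 3.87% of CA1-like nuclei (median 3012 UMIs), a class that should lack it. After thinning every nucleus to 500 UMIs these shares were 12.5% and 0.653%, and the corresponding Glis3 shares were 35.6% and 1.62%, in the same order.

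Neither gene was restricted to granule cells. Prox1 had 225 CPM in oligodendrocyte-like nuclei (154 to 281 in single pools), a range that overlapped that of DG-like nuclei (211 to 326). Its highest class level, 959 CPM, was in the Sema3c-led cluster, which held only 58 nuclei and 98 Prox1 UMIs. Glis3 was higher in ependymal-like nuclei (1426 CPM, 113 nuclei) than in DG-like nuclei, and astrocyte-like nuclei had 417 CPM.

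Within the DG-like class, Prox1 was lowest in both PLX5622 pools. Prox1 in DG-like nuclei was 292 CPM in Control-Vehicle, 211 in Control-PLX5622, 302 in Con-IL-1R1+/+ and 326 in Con-nIL-1R1-/-. After stress it was 318 CPM in Stress-Vehicle, 236 in Stress-PLX5622, 284 in Stress-nIL-1R1-/- and 307 in Stress-IL-1R1+/+. The lowest value of either condition was the PLX5622 pool, and control and stress overlapped. Glis3 in these nuclei was 1017 CPM in Control-Vehicle, 943 in Control-PLX5622, 1075 in Con-IL-1R1+/+ and 1065 in Con-nIL-1R1-/-. The stress pools had 887 (Stress-Vehicle), 690 (Stress-PLX5622), 993 (Stress-nIL-1R1-/-) and 1114 CPM (Stress-IL-1R1+/+), so that Stress-PLX5622 was again lowest and the conditions overlapped. The class was made of 2 clusters, and the shallower (median 750 UMIs per nucleus against 3067) had 256 CPM of Prox1 against 310. It supplied 667 of the 821 DG-like nuclei of Control-PLX5622 and 1202 of the 1368 of Stress-PLX5622. The part of depth in these lower values was not tested.

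Lhx6 had the largest share of UMIs in a single class of the 9 genes. MGE interneuron-like nuclei had 60.4 CPM (45.4 to 78.1 in single pools) and neurogliaform interneuron-like nuclei 51.6 CPM (22.6 to 96.9), while CGE interneuron-like nuclei had 1.249, CA2/3-like 0.87, DG-like 0.80 and CA1-like 0.33 CPM. The MGE and neurogliaform classes, which overlapped each other over pools, held 63.5% and 16.2% of the 1580 Lhx6 UMIs. An Lhx6 UMI was seen in 22.7% of MGE interneuron-like nuclei (median 2808 UMIs) and in 0.143% of CA1-like nuclei. Thinned to 500 UMIs these shares were 3.66% and 0.0181%.

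Prox1 ran the other way among interneurons. It had 100.9 CPM in CGE interneuron-like nuclei (63.8 to 140 in single pools), 65.3 CPM in neurogliaform and 27.9 CPM in MGE interneuron-like nuclei. UMIs of both genes were found in 85 of 3115 MGE, 34 of 987 neurogliaform and 3 of 1763 CGE interneuron-like nuclei. Over all interneurons, a Prox1 UMI was seen in 13.7% of nuclei with an Lhx6 UMI and in 13.7% of those without. Within each class the share was higher in nuclei with an Lhx6 UMI. It was 12% against 6.52% in MGE and 19.8% against 16.2% in neurogliaform interneuron-like nuclei. In CGE interneuron-like nuclei it was 27.3% against 22.3%, with only 11 nuclei that had an Lhx6 UMI. These differences were not tested. Doublets were not removed and Prox1 UMIs also occurred in CA1-like nuclei (3.87%), so these counts do not show that single nuclei expressed both genes.

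Cux2 was highest in unnamed excitatory clusters and in interneurons. It had 560 CPM in the Npsr1-led cluster and 514 CPM in the Igfn1-led cluster, both unnamed excitatory clusters, of which the second expressed the layer 4 gene Rorb. MGE interneuron-like nuclei had 495 CPM, with overlapping pool ranges for these 3. Neurogliaform and CGE interneuron-like nuclei had 373 and 204 CPM, and CA1-like, CA2/3-like and DG-like nuclei had 20.5, 17.5 and 16.5 CPM. MGE interneuron-like nuclei held 24.3% of Cux2 UMIs, more than any other class.

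Tshz2, Fezf2 and Etv1 were high in excitatory clusters that the fixed markers did not name. Tshz2 had 3511 CPM in the Kcnh8-led cluster (3026 to 4603 in single pools), 3450 CPM in the Npsr1-led cluster (2759 to 4129) and 1317 CPM in the Fn1-led cluster (1125 to 2119). Against these, deep-layer cortical-like nuclei had 614 CPM, and DG-like, CA2/3-like and CA1-like nuclei had 50.4, 54.3 and 73.7 CPM. The 3 clusters carried 21.1% (Npsr1-led), 19.9% (Kcnh8-led) and 13.0% (Fn1-led) of Tshz2 UMIs.

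Fezf2, with 1340 UMIs in all, was highest in the Fn1-led (33.7 CPM) and Kcnh8-led (29.97 CPM) clusters. It was lower in deep-layer cortical-like nuclei at 15.6 CPM and in CA1-like nuclei at 6.13 CPM, and lowest of these in DG-like nuclei at 0.915 CPM. Etv1 was high in the Fn1-led cluster as well (189 CPM, 86.7 to 279 in single pools). Its level in CA1-like nuclei was 75.7 CPM, above the 42.8 CPM of DG-like and the 28.9 CPM of CA2/3-like nuclei. The Fn1-led and CA1-like nuclei supplied 17.1% and 17.0% of Etv1 UMIs. Its highest class level, 485 CPM in cerebellar granule-like nuclei, rested on 75 UMIs.

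Zfhx3 and Foxp2 were low in the hippocampus proper. Zfhx3 had 968 CPM in thalamic or midbrain-like nuclei, 893 CPM in the Otx2os1-led cluster and 540 CPM in microglia-like nuclei. In the hippocampal classes it ranged from 16.7 CPM (CA1-like) to 40.6 CPM (CGE interneuron-like). Foxp2 had 470 CPM in medium spiny-like and 294 CPM in deep-layer cortical-like nuclei, followed by the Otx2os1-led cluster (234 CPM) and thalamic or midbrain-like nuclei (215 CPM), and 8.8 to 21.8 CPM in the hippocampal classes. The still higher level of Foxp2 in vascular leptomeningeal-like nuclei, 836 CPM, came from few nuclei, with 173 of its 302 UMIs in 17 nuclei of Stress-nIL-1R1-/-.

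**Figure D1:**
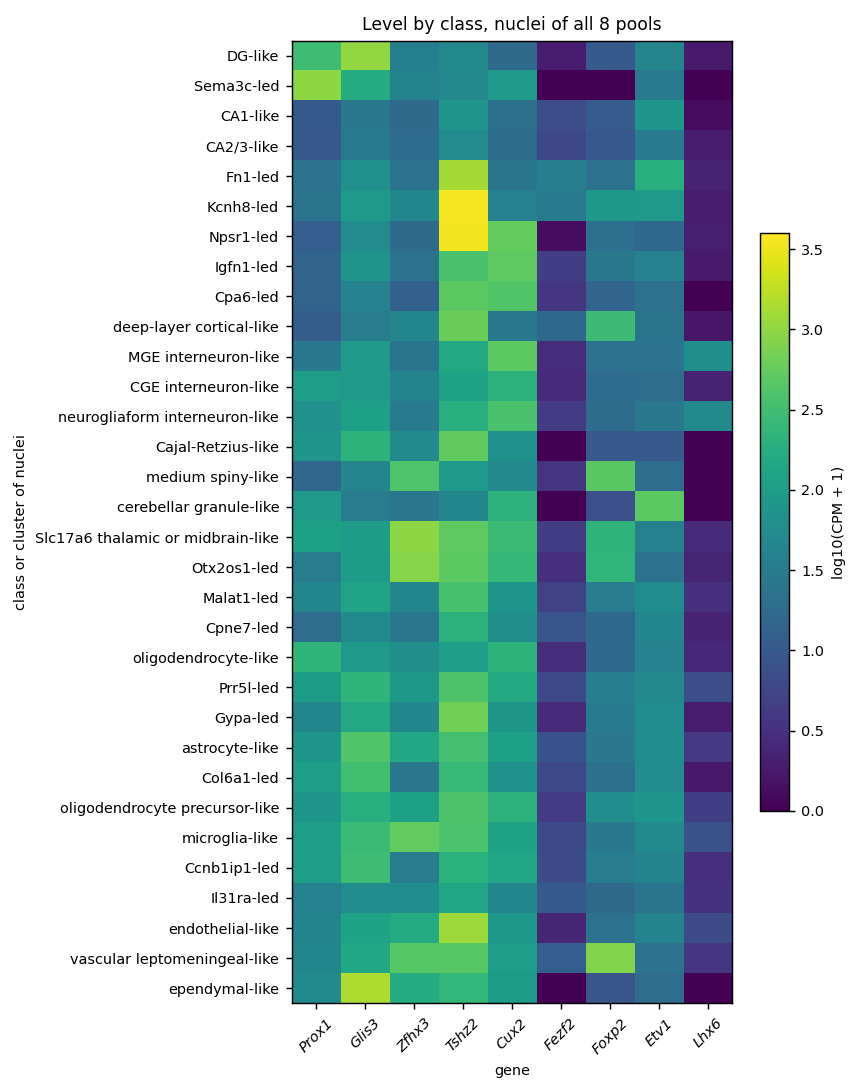
Level of the 9 genes (columns) in the classes and clusters of nuclei (rows), summed over the 8 pools and shown as color on a log10(CPM + 1) scale. Prox1 and Glis3 are bright in DG-like nuclei (301 and 1022 CPM), Lhx6 in MGE and neurogliaform interneuron-like nuclei (60.4 and 51.6 CPM), and Zfhx3 is low in CA1-like, CA2/3-like and DG-like nuclei.

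Over all nuclei, Zfhx3 and Foxp2 differed most between pools, and Glis3 least. Zfhx3 was 90.2 CPM in Control-Vehicle, 100 in Control-PLX5622, 323 in Con-IL-1R1+/+ and 33.5 in Con-nIL-1R1-/-. It was 63.2 CPM in Stress-Vehicle, 56.5 in Stress-PLX5622, 53.3 in Stress-nIL-1R1-/- and 68.9 in Stress-IL-1R1+/+. Con-IL-1R1+/+ stood far above the other pools, at 9.64 times the lowest. In Con-IL-1R1+/+ the Otx2os1-led cluster held 73.6% of Zfhx3 UMIs. In Control-Vehicle and Control-PLX5622 thalamic or midbrain-like nuclei held 38.0% and 44.9%, and in Stress-Vehicle and Stress-nIL-1R1-/- microglia-like nuclei held 41.9% and 47.6%. Without the 4 sets of nuclei that stood apart the ratio of highest to lowest pool was 3.07, and over the named hippocampal classes alone it was 1.89.

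Foxp2 was 88.1 CPM in Con-IL-1R1+/+, 26.3 in Control-Vehicle, 45.7 in Control-PLX5622 and 22.8 in Con-nIL-1R1-/-. After stress it was 31.7 CPM in Stress-Vehicle, 24.8 in Stress-PLX5622, 55.0 in Stress-nIL-1R1-/- and 68.9 in Stress-IL-1R1+/+. Its source differed by pool: the Otx2os1-led cluster held 69.6% of the UMIs in Con-IL-1R1+/+, deep-layer cortical-like nuclei 51.9% in Stress-nIL-1R1-/-, and medium spiny-like nuclei 16.8% in Stress-IL-1R1+/+. Con-IL-1R1+/+ had 99 deep-layer cortical-like nuclei, and Stress-nIL-1R1-/- had 477. The ratio of highest to lowest pool, 3.86 over all nuclei, was 2.75 without the nuclei that stood apart and 1.74 over the hippocampal classes.

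**Figure D2:**
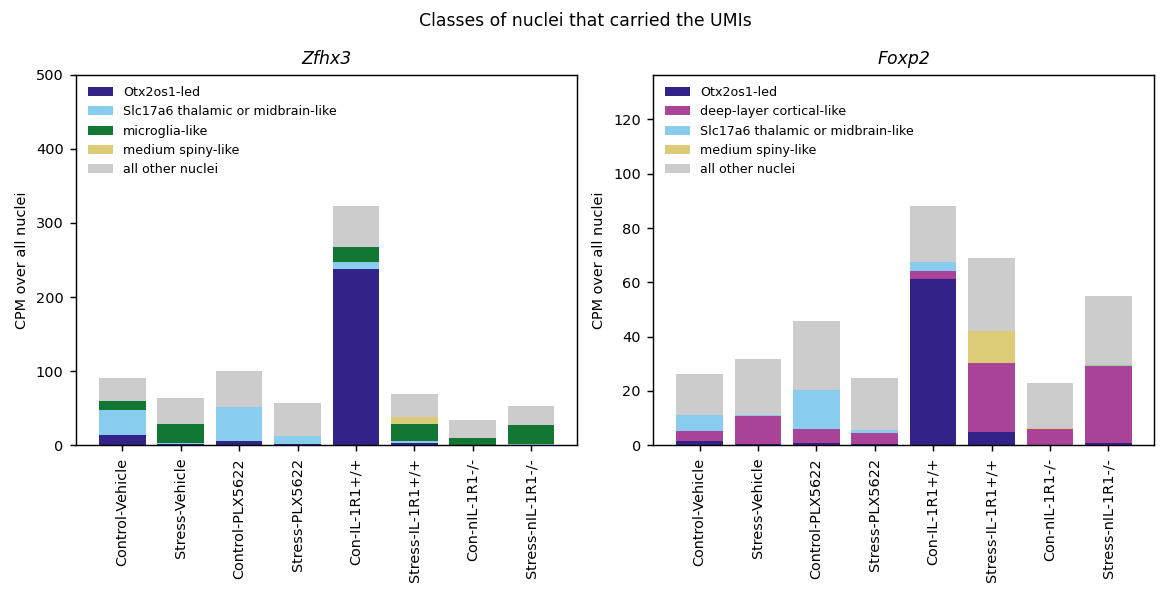
Level of Zfhx3 and Foxp2 over all nuclei (CPM), one bar per pool, divided by the class of nuclei that held the UMIs. In Con-IL-1R1+/+ the Otx2os1-led cluster makes up 73.6% of the Zfhx3 bar and 69.6% of the Foxp2 bar.

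Tshz2 ranged from 286 CPM in Stress-Vehicle to 613 CPM in Stress-nIL-1R1-/-, a ratio of 2.14. Unlike Zfhx3, it did not become more even in the hippocampal classes, where the ratio was 2.90 at a lower level. Prox1 ranged from 55.2 CPM in Control-PLX5622 to 91.5 CPM in Stress-Vehicle (ratio 1.66), and Glis3 from 175 CPM in Stress-nIL-1R1-/- to 249 CPM in Con-nIL-1R1-/- (ratio 1.42). The pool with the lowest Prox1 also had the smallest share of DG-like nuclei, 11.1% against 16.7% to 21.7% elsewhere. Fewer nuclei of a type and a lower level in them cannot be told apart in such sums alone. Within DG-like nuclei Prox1 was lowest in Control-PLX5622 too, at 211 CPM, and 58.7% of the nuclei of that pool were in unnamed clusters. Fezf2 ranged from 3.79 to 8.38 CPM and Lhx6 from 4.71 to 8.48 CPM, both lowest in Control-PLX5622.

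**Figure D3:**
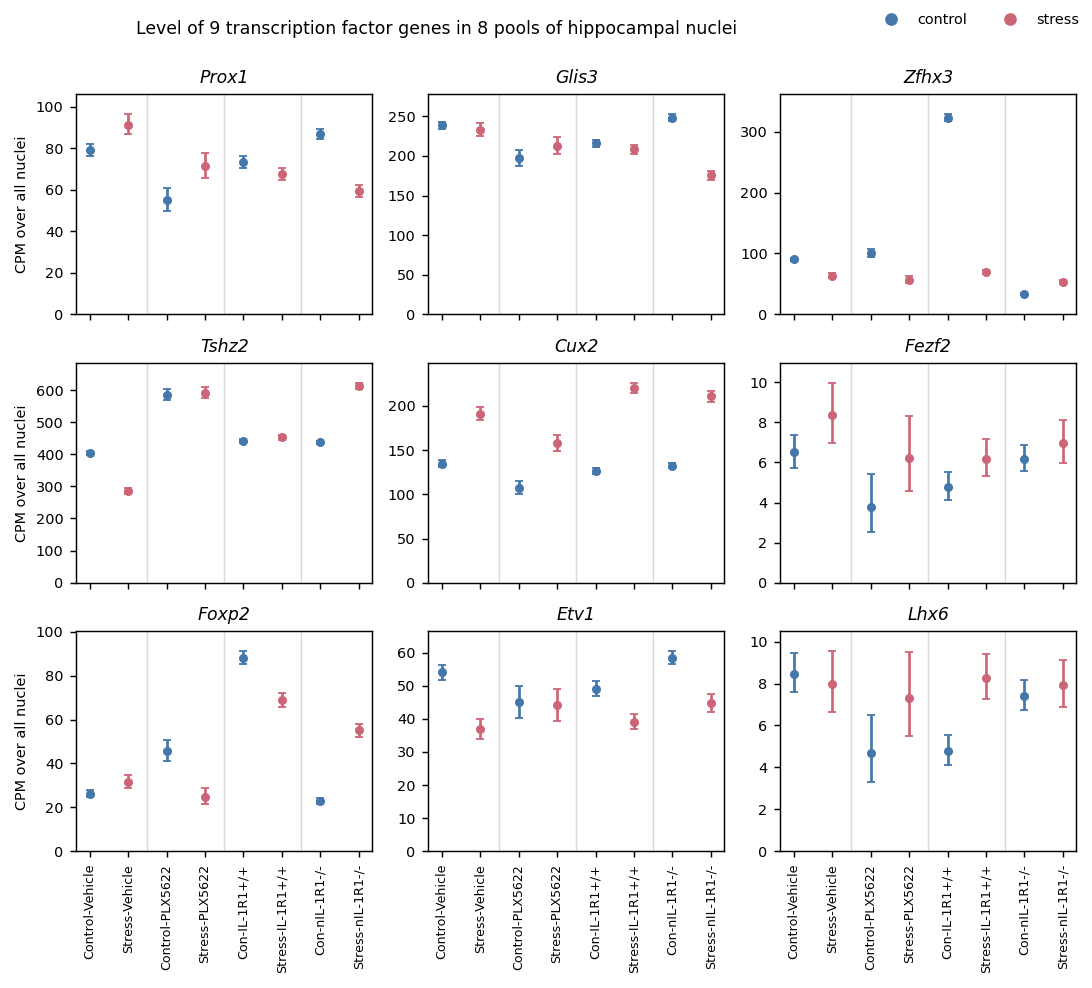
Level of each gene over all nuclei (CPM), one panel per gene and one point per pool with its 95% counting interval, colored by control or stress. Zfhx3 and Foxp2 peak in Con-IL-1R1+/+ (323 and 88.1 CPM), and Cux2 is higher in each stress pool than in any control pool.

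The influence of RSD was assessed across the 4 pairs of control and stress pools, with pair as a block, by edgeR's quasi-likelihood test with Benjamini-Hochberg adjustment. No member passed an adjusted p below 0.05 over all nuclei, where 60 of 18576 genes tested did (0.323%, 56 higher and 4 lower after stress). That count rested on which pairs were used: it was 0 without the vehicle pair and 132 without the PLX5622 pair. Cux2 came closest among the members.

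Cux2 over all nuclei was 135 CPM in Control-Vehicle, 108 in Control-PLX5622, 126 in Con-IL-1R1+/+ and 132 in Con-nIL-1R1-/-. In the stress pools it was 191 CPM (Stress-Vehicle), 158 (Stress-PLX5622), 211 (Stress-nIL-1R1-/-) and 221 (Stress-IL-1R1+/+). The groups did not overlap, which was so for 884 of the 18576 genes in either direction (4.76%). As log2 ratios of stress over control, the pairs gave 0.51 (vehicle), 0.56 (PLX5622), 0.80 (IL-1R1+/+) and 0.67 (nIL-1R1-/-), and in each pair it was above 0 in all 4 sequencing sublibraries. Sublibraries are parts of the same pools and not replicates. Foxp2, whose pairs went different ways, also kept its sign over all 4 sublibraries in each pair. The fitted log2 difference of Cux2 was 0.60 (SE 0.11, edgeR adjusted p = 0.0518), just above the threshold. Over the other ways of processing, the adjusted p of Cux2 ran from 0.000258 (edgeR, no filter on low counts) to 0.286 (edgeR, without the vehicle pair). It was 0.0399 by edgeR without the 4 sets of nuclei that stood apart, an alternative added after the data were seen, and 0.0273 without the PLX5622 pair, the shallowest.

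The Cux2 difference was seen in many classes of the same pools. Among 19 classes with at least 20 nuclei in every pool, stress was higher in all 4 pairs in 12. It was higher in at least 3 pairs in 16, and no class had fewer than 2. Among the other members, at most 4 classes were higher in all 4 pairs (Foxp2), and at most 4 in none (Glis3 and Etv1). The classes are parts of the same pools and not independent repeats, so these counts add no replication. How often genes outside the members reach such counts was not tested. In MGE interneuron-like nuclei the control pools had 510 (Control-Vehicle), 421 (Control-PLX5622), 523 (Con-IL-1R1+/+) and 423 CPM (Con-nIL-1R1-/-), and the stress pools 562 (Stress-Vehicle), 555 (Stress-PLX5622), 541 (Stress-nIL-1R1-/-) and 559 CPM (Stress-IL-1R1+/+), without overlap, which was so for 3.59% of the 10383 genes kept by the filter on low counts in these nuclei. The groups also did not overlap in the Npsr1-led cluster (373 to 577 CPM in control, 594 to 716 in stress, beside 3.05% of genes) and in oligodendrocyte precursor-like nuclei (149 to 199 and 223 to 288 CPM, beside 4.11%). The same held in the Prr5l-led and Col6a1-led clusters, where 4.59% and 4.26% of genes did not overlap. Both clusters had more UMIs per nucleus than their pools, and doublets were not removed. In Con-nIL-1R1-/-, 194 Prr5l-led and 346 Col6a1-led nuclei had 4525779 and 6770709 UMIs, against 58081835 over the 6511 nuclei of the pool. DG-like nuclei, where Cux2 is low, had 11.3 to 19.01 CPM in control and 15.1 to 26.3 CPM in stress pools, and these overlapped.

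The mix of nuclei differed between these pools too. The Igfn1-led cluster, rich in Cux2, had 64 to 192 nuclei in the control pools and in Stress-PLX5622, but 644 in Stress-Vehicle, 586 in Stress-nIL-1R1-/- and 530 in Stress-IL-1R1+/+. Splitting the difference in CPM between stress and control into a part from class shares and a part from levels within classes gave 21.6 and 35.0 CPM in the vehicle pair, -9.22 and 59.7 in the PLX5622 pair, -49.4 and 144 in the IL-1R1+/+ pair, and 47.5 and 31.0 in the nIL-1R1-/- pair. In the Otx2os1-led cluster, Cux2 was 198 CPM over the 1507 nuclei of Con-IL-1R1+/+ and 829 CPM over the 107 of Stress-IL-1R1+/+. Without the 4 sets of nuclei that stood apart, the parts from shares and within classes were 42.6 and 69.7 CPM in the IL-1R1+/+ pair, so the part from shares turned positive. They were 24.6 and 40.6 CPM in the vehicle pair, -1.91 and 52.9 in the PLX5622 pair, and 44.3 and 26.1 in the nIL-1R1-/- pair. The part within classes was positive in all 4 pairs both ways.

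**Figure D4:**
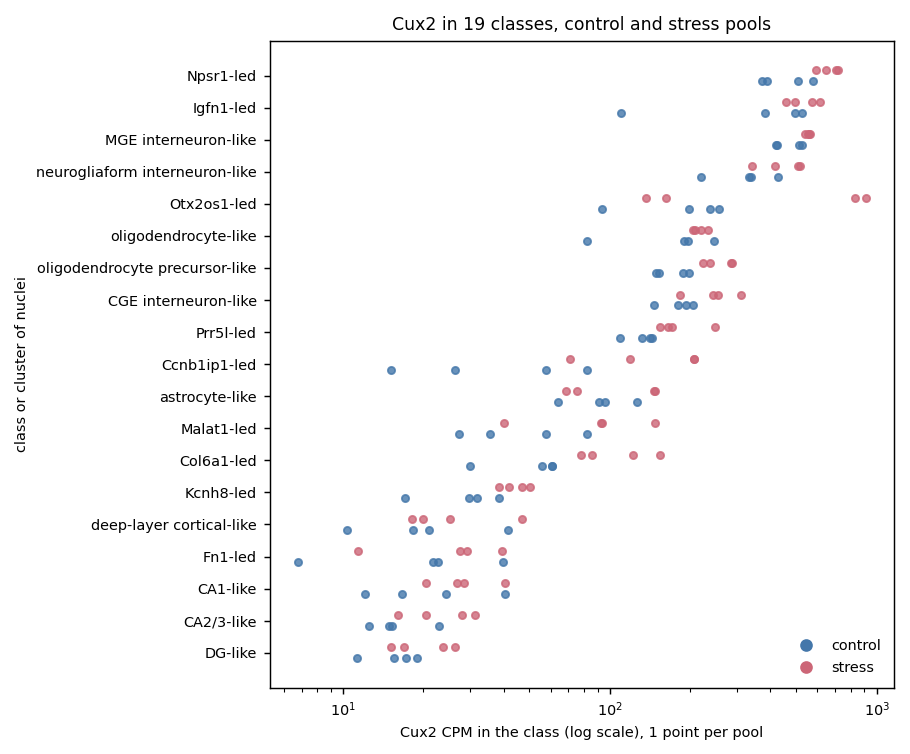
Cux2 level (CPM, log axis) in 19 classes and clusters of nuclei, one point per pool, colored by control or stress. In MGE interneuron-like nuclei the 4 stress pools (541 to 562 CPM) lie above the 4 control pools (421 to 523 CPM).

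Etv1 was the other member without overlap, and it was lower in stress. It was 54.0 CPM in Control-Vehicle, 44.96 in Control-PLX5622, 49.1 in Con-IL-1R1+/+ and 58.4 in Con-nIL-1R1-/-, against 36.8 in Stress-Vehicle, 44.1 in Stress-PLX5622, 44.8 in Stress-nIL-1R1-/- and 39.1 in Stress-IL-1R1+/+. The gap between the lowest control and the highest stress pool was small, and the PLX5622 pair differed by a log2 ratio of only -0.03. The log2 difference was -0.37 (SE 0.10, edgeR adjusted p = 0.169).

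The other members gave no call over all nuclei. The log2 difference was -0.77 (SE 0.34) for Zfhx3, 0.34 (SE 0.14) for Fezf2, 0.30 (SE 0.18) for Lhx6 and -0.16 (SE 0.11) for Glis3. It was -0.07 (SE 0.13) for Prox1, -0.03 (SE 0.15) for Tshz2 and 0.07 (SE 0.27) for Foxp2, and in these genes the pairs went different ways. The log2 ratio of Prox1 was 0.21 and 0.38 in the diet experiment and -0.12 and -0.55 in the genotype experiment, that of Tshz2 ran from -0.50 (vehicle) to 0.49 (nIL-1R1-/-), and that of Foxp2 from -0.88 (PLX5622) to 1.27 (nIL-1R1-/-). For Zfhx3, the IL-1R1+/+ pair (-2.23) held the extreme value and the nIL-1R1-/- pair the opposite sign (0.67). Without the 4 sets of nuclei that stood apart the fitted log2 difference of Zfhx3 was -0.02, and without the IL-1R1+/+ pair it was -0.29.

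**Figure D5:**
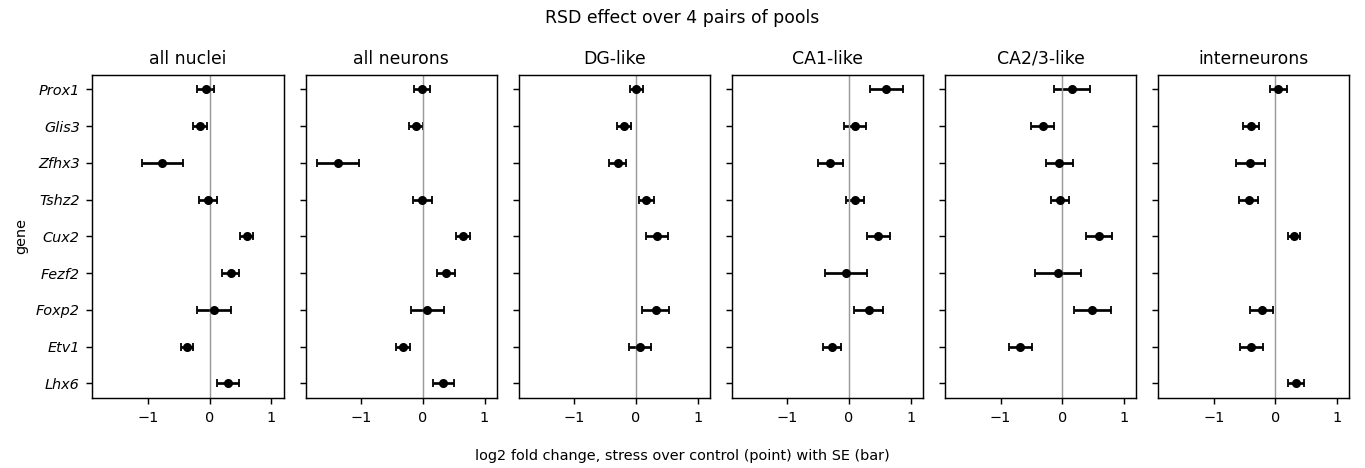
Log2 difference between stress and control (x axis) for each gene tested, in all nuclei, all neurons and 4 sets of neurons, as edgeR estimates with SE bars. Cux2 lies above 0 in every set shown, and no estimate had an adjusted p below 0.05.

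Within neuron classes no member passed either. In all neurons 3 of 17756 genes tested passed (0.0169%), and Cux2 had a log2 difference of 0.65 (SE 0.11, edgeR adjusted p = 0.109) and Zfhx3 of -1.37 (SE 0.34, adjusted p = 0.165). Without the 4 sets of nuclei that stood apart, the neuron value of Zfhx3 was -0.51 (edgeR adjusted p = 0.272) and that of Cux2 0.74 (adjusted p = 0.0701). The Zfhx3 value was -0.87 without the IL-1R1+/+ pair and -1.86 without the nIL-1R1-/- pair. Leaving out 1 pair at a time, the edgeR adjusted p in all neurons ran from 0.0252 (without the PLX5622 pair) to 0.48 (without the vehicle pair) for Cux2 and from 0.0314 (without the nIL-1R1-/- pair) to 0.686 (without the vehicle pair) for Zfhx3. In DG-like nuclei 13 of 10900 genes passed (0.119%) and 7 members were abundant enough to be tested, Fezf2 and Lhx6 being too low. Prox1 there had a log2 difference of 0.0020 (SE 0.10, edgeR adjusted p = 0.998) and Glis3 of -0.19 (SE 0.11). Zfhx3 in DG-like nuclei was 35.3 to 43.9 CPM in control and 28.2 to 32.2 CPM in stress pools, without overlap (log2 difference -0.30, SE 0.14, edgeR adjusted p = 0.41). The pools of 445 of the 10900 genes tested there (4.08%) did not overlap.

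In CA1-like nuclei 38 of 10521 genes passed (0.361%), and in CA2/3-like nuclei 118 of 10632 (1.11%), with 8 members tested in each. In CA2/3-like nuclei Etv1 had a log2 difference of -0.68 (SE 0.19, edgeR adjusted p = 0.0676) and Cux2 of 0.60 (SE 0.21, adjusted p = 0.171). Etv1 there was 20.8 to 35.4 CPM in control and 17.2 to 31.3 CPM in stress pools, which overlapped. It was higher in stress in 1 pair, PLX5622, on 10 (control) and 8 UMIs (stress). In CA1-like nuclei Cux2 had 0.47 (SE 0.19) and Etv1 -0.27 (SE 0.15). The largest value of a member there was that of Prox1, 0.60 (SE 0.27, edgeR adjusted p = 0.336), at a low level. Its control pools had 6.61 to 20.2 CPM and its stress pools 8.70 to 21.95 CPM, with overlap. In all interneurons 3 of 11911 genes passed (0.0252%). Among the 8 members tested there, Lhx6 (0.33, SE 0.13) and Cux2 (0.30, SE 0.10) had positive and Tshz2 (-0.43, SE 0.15) and Glis3 (-0.40, SE 0.13) negative log2 differences, with edgeR adjusted p from 0.401 to 0.429.

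Fezf2 could be compared where it was highest, though on few UMIs. In the Fn1-led cluster it was 27.0 CPM in Control-Vehicle, 19.01 in Control-PLX5622, 28.4 in Con-IL-1R1+/+ and 33.7 in Con-nIL-1R1-/-, against 38.1 in Stress-Vehicle, 40.8 in Stress-PLX5622, 50.7 in Stress-nIL-1R1-/- and 35.2 in Stress-IL-1R1+/+. In the Kcnh8-led cluster the control pools had 17.1 to 28.7 CPM and the stress pools 32.3 to 40.5 CPM. The groups did not overlap in either cluster, where this was so for 4.71% of 8272 genes (Fn1-led) and 2.75% of 6547 genes (Kcnh8-led) kept by the filter on low counts. The values of Control-PLX5622 rested on 5 and 3 UMIs, and neither cluster was tested. This was not so in other classes with Fezf2 UMIs. Deep-layer cortical-like nuclei had 7.79 to 20.3 CPM in control and 10.9 to 18.5 CPM in stress pools. These overlapped, and stress was higher in 2 pairs. In CA1-like nuclei it was also higher in 2 pairs. The fitted log2 difference of Fezf2 was -0.05 (SE 0.35) in CA1-like and -0.07 (SE 0.37) in CA2/3-like nuclei. Lhx6 in MGE interneuron-like nuclei was 68.6 CPM in Control-Vehicle, 45.4 in Control-PLX5622, 52.3 in Con-IL-1R1+/+ and 46.5 in Con-nIL-1R1-/-. In stress it was 78.1 (Stress-Vehicle), 53.7 (Stress-PLX5622), 72.2 (Stress-nIL-1R1-/-) and 77.1 CPM (Stress-IL-1R1+/+), higher in each pair but with overlap between the groups.

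The PLX5622 diet, IL-1R1 deletion and the difference of the stress effect between both experiments gave 0 calls among 18576 genes by edgeR at adjusted p below 0.05 (0%). At an unadjusted p below 0.05, edgeR gave 1216, 746 and 1882 genes, and DESeq2 called 42, 16 and 56 genes at the adjusted threshold. With no effect, a share of 0.05 of the genes tested would be expected at that unadjusted threshold. The 746 genes of IL-1R1 deletion were below that share. For the diet, Tshz2 had the largest log2 difference among members, 0.84 (PLX5622 over vehicle, SE 0.21, edgeR adjusted p = 0.474). Its levels were 586 and 592 CPM in the control and stress PLX5622 pools and 404 and 286 CPM in the vehicle pools, without overlap, which with 2 pools a group was so for 5432 of the 18576 genes (29.2%). Prox1, Glis3, Fezf2 and Lhx6 did not overlap between the diets either. Depth differed too, at 7651910 (control) and 7534594 UMIs (stress) in the PLX5622 pools against 38690912 and 15154151 in the vehicle pools. Diet and depth cannot be told apart here. For IL-1R1 deletion, Zfhx3 had the largest log2 difference among members, -1.78 (nIL-1R1-/- over IL-1R1+/+, SE 0.48, edgeR adjusted p = 0.714), and this was -0.84 without the 4 sets of nuclei that stood apart. Foxp2 had -0.98 (SE 0.37), and -0.18 without those nuclei. These fits take the control and stress pools of a genotype together. Taken singly, the log2 ratio of nIL-1R1-/- over IL-1R1+/+ for Zfhx3 was -3.27 in control and -0.37 in stress. For Foxp2 it was -1.95 in control and -0.32 in stress. The control ratios use Con-IL-1R1+/+, the pool with the highest level of both genes. For the difference between experiments, Tshz2 had 0.61 (SE 0.20) and Prox1 -0.51 (SE 0.20), with edgeR adjusted p of 0.415 and 0.455.

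Related regulators were examined as lists, which were not independent of earlier results of these data. None of the paralogues of the 9 genes (12 of 14 tested), pallial excitatory factors (24 of 24), interneuron factors (11 of 13) or factors of diencephalon, midbrain and hindbrain (11 of 20) passed the edgeR test for RSD over all nuclei. Their median log2 differences were 0.21, 0.10, 0.25 and -0.04, beside -0.0028 over all genes tested. Among the genes with the smallest p, the LIM homeobox gene Lhx9 had a log2 difference of -0.86 (SE 0.20, edgeR adjusted p = 0.111). Tcf7l2, a thalamic factor, had -0.90 (SE 0.29) and the Cux2 paralogue Cux1 had 0.29 (SE 0.12). Without the 4 sets of nuclei that stood apart these values were -0.57 (Lhx9), -0.14 (Tcf7l2) and 0.36 (Cux1), with edgeR adjusted p of 0.153, 0.74 and 0.178. Tcf7l2 was a marker that named the thalamic or midbrain-like set, so the change of its value followed in part from that choice of nuclei. The summed level of the diencephalon, midbrain and hindbrain list was 1157 to 1901 CPM in control and 1222 to 1484 CPM in stress pools, and its median log2 difference for IL-1R1 deletion was -0.78, with no gene passing. The highest of these sums was Con-IL-1R1+/+, whose Otx2os1-led cluster has Ebf1, Ebf2, Ebf3 and Tcf7l2, all on this list, among its top genes. Without the 4 sets that stood apart, the sums were 1087 to 1278 CPM in control and 1191 to 1414 CPM in stress pools. The median of the list, of which 10 genes were then tested, was 0.36 for RSD and -0.60 for deletion, again with no gene passing. Ebf1, Ebf3, Lef1 and Tcf7l2 of this list were also markers that named the thalamic or midbrain-like set. Lower sums without the 4 sets therefore followed in part from the choice of nuclei.

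Genes with the most similar pattern over 32 classes and clusters were found by Pearson's r of log2(CPM + 1) among 15369 genes, a description in which all points share the same libraries. Prox1 was matched by its antisense partner Prox1os (r = 0.98) and Sema5a (0.834), and Glis3 by Rfx3 (0.876), a granule cell marker used to name the DG class, and Vwa3b (0.874). Zfhx3 was nearest to Tcf7l2 (0.774) and Tshz2 to its paralogue Tshz3 (0.767). For Cux2 the nearest were the glutamate receptor gene Gria4 (0.743) and the paralogue Cux1 (0.67). Lhx6 was nearest to the neurexophilin genes Nxph2 (0.757) and Nxph1 (0.753), Fezf2 to Gm34583 (0.749), Foxp2 to Gm15631 (0.784) and Etv1 to Mirt1 (0.702). Like Rfx3, the genes Tcf7l2, Nxph1 and Cux1 were among the fixed markers for naming classes, so these matches are not independent of the naming.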

How the data were processed

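Nuclei of 8 pools (3 mice each) were barcoded by split-pool ligation (Parse Biosciences) and sequenced. The authors aligned reads to mm39 (GRCm39) and deposited 1 matrix of raw UMI counts per pool, each holding 4 sublibraries, and the submitters' processing notes name Seurat 4.1.1. The counter's strand setting and version are not given in the sources used here. The members and gene lists were chosen with earlier results of these data known, and 0 per-sample columns were left unused.

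Nuclei above 20% mitochondrial UMIs were removed, as in the study. Genes without a symbol (2693 rows, 0.258% of UMIs) kept their identifiers and entered totals and tests. No barcode was shared between pools (0 shared). Nuclei were clustered in Python 3.11.15 with scanpy 1.11.5 and leidenalg 0.10.2 (2000 variable genes without the members, 30 principal components, resolution 1.5), and clusters were named from fixed markers with a minimum score of 0.5, which was set after the clusters were seen. The lowest named cluster scored 0.559 and the highest unnamed 0.493. The Scrublet caller, left to set its own threshold, called 0 or 1 nuclei in 7 of 8 pools. In the other pool, Con-nIL-1R1-/-, it called 1484 of 6511 nuclei. Its threshold was therefore not used and no doublets were removed in the main analysis. Leaving out the 6% highest scores of each pool (53429 nuclei left) was an alternative. Class names were rebuilt here and can differ from the study's.

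CPM was computed from UMIs summed over the nuclei of a class in a pool, with exact Poisson intervals (95%) and, for shares of nuclei, exact binomial intervals, all covering counting error only. Shares were also computed after thinning to 500 UMIs, which left out 8013 nuclei below that depth. Summed counts were tested with edgeR 4.0.16 (R 4.3.3) by the quasi-likelihood test with filterByExpr, TMM and pair plus condition as terms, with Benjamini-Hochberg adjustment over all genes tested. The pairs share diet or genotype, not animals. Over all nuclei, the deviations of paired pools from the condition means correlated over genes at r = 0.198 to 0.268. This r was 0.168 to 0.255 in all neurons, 0.115 to 0.192 in DG-like and 0.0921 to 0.211 in CA1-like nuclei. It was 0.044 to 0.154 in CA2/3-like nuclei and 0.0584 to 0.206 in interneurons. DESeq2 1.42.0, no TMM, no filter, no block, leaving out each pair, other clusterings, a mean over nuclei and thinning were alternatives. The edgeR model was tested on simulated counts with 1 fixed spread and, apart from planted changes, the same gene proportions in every pool. That setting is simpler than these data, whose pools differ in their mix of nuclei. Named genes were all members, the 3 genes most like each in class pattern, and genes among the 4 of each list with the smallest p, of which 1 is not reported here.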

Additional observations from a re-analysis of the deposited data

How the results depend on the processing

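The number of genes passing edgeR's adjusted threshold of 0.05 for RSD depended strongly on the replicate block of matched pairs. Without the replicate block it was 0 in all nuclei, all neurons, DG-like, CA1-like, CA2/3-like nuclei and interneurons alike, where the blocked counts were 60, 3, 13, 38, 118 and 3. With 1 pair left out at a time these counts ran from 0 to 132, 0 to 79, 1 to 95, 6 to 69, 21 to 67 and 1 to 7. With no filter on low counts they were 872, 771, 103, 111 and 62 in all nuclei, neurons, DG-like and CA1-like nuclei and interneurons, and with DESeq2 286 in all nuclei, 229 in neurons and 15 in interneurons. Without TMM, 5 genes passed in neurons and 5 in DG-like nuclei, and 9 passed in neurons without the 4 sets of nuclei that stood apart. Of the related lists, the diencephalon, midbrain and hindbrain list gave 8 genes for RSD and 10 for deletion without a filter, and 0 to 2 for RSD with 1 pair left out. For diet, deletion and the difference between experiments, where edgeR gave 0, DESeq2 gave 42, 16 and 56 genes and edgeR without a filter 203, 198 and 286. The cause was not tested.

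Of the members, Cux2 for RSD over all nuclei also passed without TMM (adjusted p = 0.0241, edgeR) and with DESeq2 (adjusted p = 0.000484), and Tshz2 for diet passed with DESeq2 (adjusted p = 0.0372). The direction of Cux2 for RSD was the same under each alternative run, in all nuclei, all neurons and the 4 sets of neurons. Under DESeq2, 48 of 52 member results kept direction and call. With no filter on low counts, 8 of 52 passed that had not, Zfhx3 for RSD and for deletion among them. Estimates near 0 turned sign. For RSD in all nuclei, Tshz2 was 0.011 without TMM and 0.017 without the block, and Foxp2 -0.012 without the block. For RSD in neurons, Foxp2 was -0.035 without the block. For RSD in DG-like nuclei, Prox1 was -0.0037 with DESeq2, -0.045 without a filter and -0.0092 without the block. For diet, Zfhx3 was -0.0012 without TMM and -0.029 without the 4 sets of nuclei that stood apart, and Etv1 -0.0058 without TMM. For deletion, Prox1 was -0.047 and Glis3 -0.10 without those nuclei, and Glis3 -0.0090 and Cux2 -0.0040 without TMM. For the difference between experiments, Etv1 was -0.049 without TMM and -0.036 without those nuclei. With 1 pair left out, the RSD log2 difference ran from -0.15 to 0.11 for Prox1, from -0.19 to 0.14 for Tshz2 and from -0.33 to 0.39 for Foxp2 in all nuclei, from -0.31 to 0.38 for Foxp2 in neurons, and for Prox1 from -0.043 to 0.072 in DG-like nuclei and from -0.092 to 0.18 in interneurons.

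Mean levels over pools moved with the nuclei used. As a mean over nuclei, Prox1 was 88.04 and Glis3 248 CPM, and Glis3 was 249 CPM after thinning. In the named hippocampal classes alone the means were 98.3 (Prox1), 299 (Glis3), 95.7 (Tshz2), 3.37 (Fezf2), 13.7 (Foxp2), 39.0 (Etv1) and 13.5 CPM (Lhx6). Zfhx3 was 27.1 against 98.6 CPM over all nuclei and Cux2 138 against 160 CPM, moves within 1 SD of the pools, which for Zfhx3 was wide. With 15 principal components, which changed class boundaries, Tshz2 in deep-layer cortical-like nuclei was 1972 CPM with 23.7% of its UMIs, Fezf2 20.5 CPM with 20.8%, and Etv1 in CA1-like nuclei 92.1 CPM with 32.9%. Etv1 in CA1-like nuclei was 89.3 CPM with 35.5% of its UMIs at resolution 0.8. With the highest Scrublet scores left out, DG-like nuclei held 53.3% of Prox1 UMIs and 62.0% of Glis3 UMIs. These shares were 45.7% and 52.8% in the main analysis. No MGE interneuron-like class was named with 15 components, so Cux2 and Lhx6 have no value there. The shallow PLX5622 pools limit what can be seen of Fezf2 and Lhx6, which had few UMIs.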
